A study of Mus musculus with 40 samples.

Results

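The change of gene expression with Sall2 dosage was followed across untreated and doxorubicin-treated mouse embryonic fibroblasts (MEFs). Dosage was coded as 1 in WT, 0.5 in Het and 0 in KO cells. A slope on this code was fitted to the read counts of every expressed gene, with treatment as a covariate, so that a slope of 1 stands for a level 1 log2 unit higher in WT than in KO. Genes entered by a filter on low counts alone, which kept 16656 of the 24062 genes counted. The question was which of these genes keep the same direction with dosage in both treatments.

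The MEFs were primary cells at passage 3 from embryos of 13.5 days post coitum on a mixed C57BL/6J-129P2OlaHsd background. Control libraries came from 1 WT, 1 Het and 3 KO embryos, and cells of the same embryos were also given 1 µM doxorubicin, a drug that breaks DNA, for 16 h. The KO embryo 3 library with doxorubicin held the same count as that of KO embryo 2 for each of the 24062 genes, so these were counted as 1 library and 9 libraries of 5 embryos remained. Total counts per library lay between 15560728 and 24122414. The KO allele was made in 129P2-derived stem cells, so DNA linked to it, and whatever else is particular to the single WT and the single Het embryo, cannot be told apart from Sall2 dosage.

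SALL2 is a zinc finger transcription factor of the spalt family, whose members act in the development of several organs. It takes part in the response to DNA damage and in the control of the cell cycle, and genes such as Cdkn1a, Pmaip1, Myc and Ccne1 have been described as its targets. A heterozygote carries a single working copy, so a gene that follows the amount of the factor would lie between WT and KO in the Het cells.

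Levels are given as CPM, the counts of a gene relative to its library size after scaling by the trimmed mean of M-values, and KO values follow the order of embryos 1, 2 and 3. Without the drug WT had 37.6 CPM of Sall2, Het 24 and KO 19.9, 24.3 and 19. With the drug WT had 9.35, Het 7.94 and KO 4.23 and 3.72. WT was the highest library of each treatment, and Het lay above both KO libraries with doxorubicin but just under KO embryo 2 without it. The slope of Sall2 was 1.01 ± 0.23 (SE). Reads are counted over the whole gene, and those outside the targeted part check nothing, so the count tests the labels only in part.

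The libraries also differed in ways that do not follow genotype. The Het and KO embryo 3 control libraries correlated at 0.982 with each other over log2 CPM and at 0.937 to 0.946 with the other control libraries, a correlation across genes, which are not independent replicates. Summed over 22 interferon-stimulated genes, untreated Het cells had 3242 CPM and WT 137.7, while KO had 165.9, 143.1 and 3612. Treated Het cells had 1824, WT 515.4 and KO 592.2 and 640.9. Het and KO embryo 3 were the high libraries without treatment, and Het the high library with doxorubicin. Bst2, the most abundant of these genes, ranged from 11.7 CPM in untreated WT to 695 in treated Het cells.

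The summed level of the 13 macrophage markers found in the table was high in the same libraries. Untreated Het cells had a summed 769 CPM of them and WT 242.3, and KO had 169.5, 132.7 and 527.3. Treated Het cells had 836.1, WT 150 and KO 128.3 and 86.22. Lyz2, a lysozyme of myeloid cells and the most abundant of them, ranged from 34.1 to 363 CPM. Not every marker followed the sum: Mrc1, a mannose receptor, had 9.06 CPM in untreated WT, 0.287 in Het and 4.88, 4.27 and 0.269 in KO cells, and C1qa, a complement subunit, was highest in untreated WT at 23.7 and lower in untreated Het at 12.2 and KO embryo 3 at 5.92. The sum of the 10 fibroblast markers went the other way, with 20350 CPM in untreated Het, 96040 in WT, and KO at 78860, 87880 and 16500. Dcn, a matrix proteoglycan, did not follow it, with untreated KO embryo 3 at 67.9 CPM above WT at 66.5. Fewer fibroblasts and less RNA of these genes per cell cannot be told apart in bulk samples. The part of these differences in the dosage slopes was not tested beyond leaving the libraries out.

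**Figure D1:**
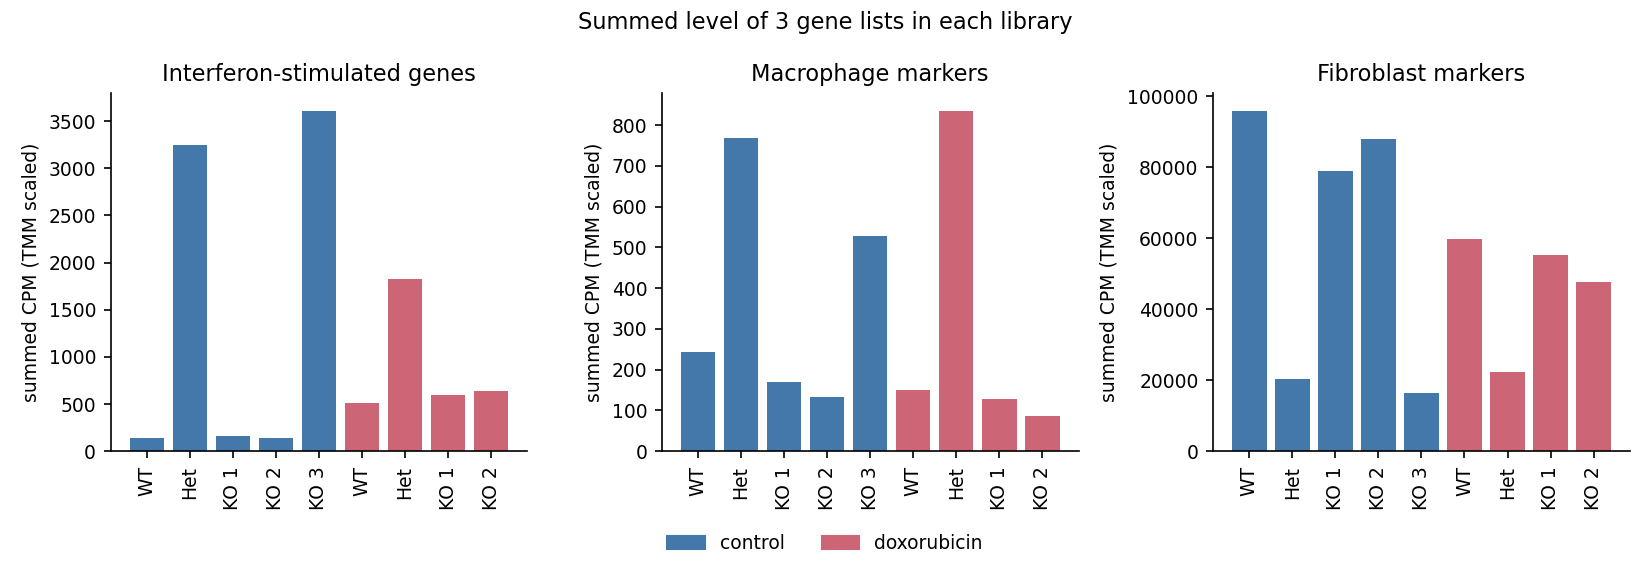
Summed CPM (vertical axis) of the interferon-stimulated genes, the macrophage markers and the fibroblast markers in each of the 9 libraries, with control in blue and doxorubicin in red. Each bar is a single library, and the Het bars and the KO 3 bar stand apart from the rest in all 3 panels.

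Embryos differed in sex-linked transcripts as well. Xist, the RNA that silences an X chromosome in female cells, stood at 294 CPM in untreated WT, 1350 in Het and 337 in KO embryo 2, while KO embryos 1 and 3 had 0.154 and 1.39. The Y-linked helicase gene Ddx3y was found at 118 and 82.3 CPM in these KO embryos, and held at most 2 counts in each other untreated library. With the drug Ddx3y reached 48.5 CPM in KO embryo 1, with 1 count in WT and none in Het and KO embryo 2. Eif2s3y, Kdm5d and Uty were high in the same libraries. More than 2 counts of a Y-linked gene were found in KO libraries only, and the fitted slopes of these 4 genes depend on the prior count and are not given.

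Over both treatments, 0 of 16656 genes (0%) passed an FDR under 0.05 in the quasi-likelihood test of edgeR, at a biological coefficient of variation of 0.447. An unadjusted p under 0.05 was found for 48 genes (0.288%), and the smallest adjusted p in edgeR was 0.655. DESeq2 called 2 genes, Ang and Ppp1r3e, with 72 at an unadjusted p under 0.05, and limma-voom called 0, with 53. Leaving out the Het libraries and KO embryo 3, an alternative picked once the data had been seen, gave 5 called genes in edgeR. Single libraries also moved the count of 48: it was 105 without treated WT, 27 without treated KO embryo 1, 22 without both libraries of KO embryo 1 and 3272 without both WT libraries, where Het is set against KO alone. It was 83 without the Het libraries, 678 without Het and KO embryo 3, 300 with 1 RUVg factor, 272 with Het given the code of WT and 127 with that of KO.

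The fitted direction was the same in both treatments for 8362 of the 16656 genes (50.2%) and opposite for 8294. Of those that kept it, 4267 were higher and 4095 lower with more Sall2. Without the Het libraries and KO embryo 3 it was the same for 8568 of 15442 genes. All 48 genes of low unadjusted p kept their direction, 24 of them higher with dosage (0.144%) and 24 lower (0.144%). Since that slope is fitted over both treatments together, the choice of these genes fixes much of the count.

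A stricter rule asked for a strict order of WT, Het and every KO library in control and again, the same way, with doxorubicin. Of the 16656 genes, 173 were ordered upward and 114 downward with dosage in control alone, and 351 upward and 439 downward with doxorubicin. How many genes would be ordered with the genotype labels placed otherwise was not tested, so the counts of ordered genes are a description. In both treatments 15 genes (0.0901%) were ordered with the highest level in WT and 8 genes (0.048%) with the lowest, 7 of these 23 having a low unadjusted p. The order has 4 steps per gene, and Ang, Osgep and Piezo2 alone had every step larger than 1 SD of its counting error. The count rests on each library: leaving out KO embryo 1, 2 or 3 gave 68, 112 and 41, and it was 1868 without Het and 3505 without Het and KO embryo 3. Each of these settings has fewer libraries to order, and those without Het also fewer steps. With RLE in place of TMM factors 27 genes were ordered, of which 16 were shared with the 23. Adam22, Cpeb4, Idua, P2ry12, Peo1, Ppp4c and Wnk4 lost their order with RLE factors and also without KO embryo 2, as Zeb2 did without that embryo.

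Ang encodes angiogenin, a secreted ribonuclease that promotes the growth of blood vessels and cuts tRNA under stress. In untreated cells WT had 4.23 CPM of it, Het 2.58 and KO 0.411, 0.786 and 0.942. In treated cells WT had 12.3, Het 5.47 and KO 1.5 and 1.56. The order rule that chose Ang fixes that the genotypes did not overlap and that Het lay between WT and KO. Het lay 0.531 of the way from the KO mean to WT in control and 0.367 with doxorubicin. Its slope was 2.88 ± 0.39 with an adjusted p of 0.655 in edgeR, the largest slope among ordered genes with a mean of at least 1 CPM.

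The call of Ang depended on the tool and the libraries. It passed with DESeq2 (slope 2.87, adjusted p = 5.26e-09), with 1 RUVg factor in edgeR (2.91, adjusted p = 0.00738) and in edgeR without the Het libraries and KO embryo 3 (2.93, adjusted p = 0.00162). Ang lies within the span of Rnase4, a ribonuclease gene on the same strand, so its counts are uncertain. Rnase4, looked up once these values had been seen, had 96.5 CPM in untreated WT, 104 in Het and 54.1, 59.2 and 112 in KO cells. With doxorubicin the levels were 242 for WT, 162 for Het and 114 and 145 for KO. Its untreated genotypes overlapped, while the treated ones were ordered as for Ang, and the slope was 0.66 ± 0.30.

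Osgep is the catalytic subunit of the complex that modifies adenosine next to the anticodon of tRNA. Untreated WT cells had 27.5 CPM, Het 22.3 and KO 17.2, 17.1 and 20.6. Under doxorubicin WT had 30, Het 22.7 and KO 17.2 and 15.8. Het lay near the middle in both treatments, at 0.439 and 0.46 of the span from KO to WT. By the order rule no library crossed into another genotype. The slope was 0.72 ± 0.17.

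Piezo2 encodes a channel opened by mechanical force. Its level without the drug was 141 CPM for WT, 127 for Het and 86.5, 108 and 77 for KO. The treated cells had 84.8 for WT, 63.2 for Het and 50.9 and 51.3 for KO. All KO libraries lay below Het in their treatment, which the order rule requires. The slope was 0.70 ± 0.18.

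**Figure D2:**
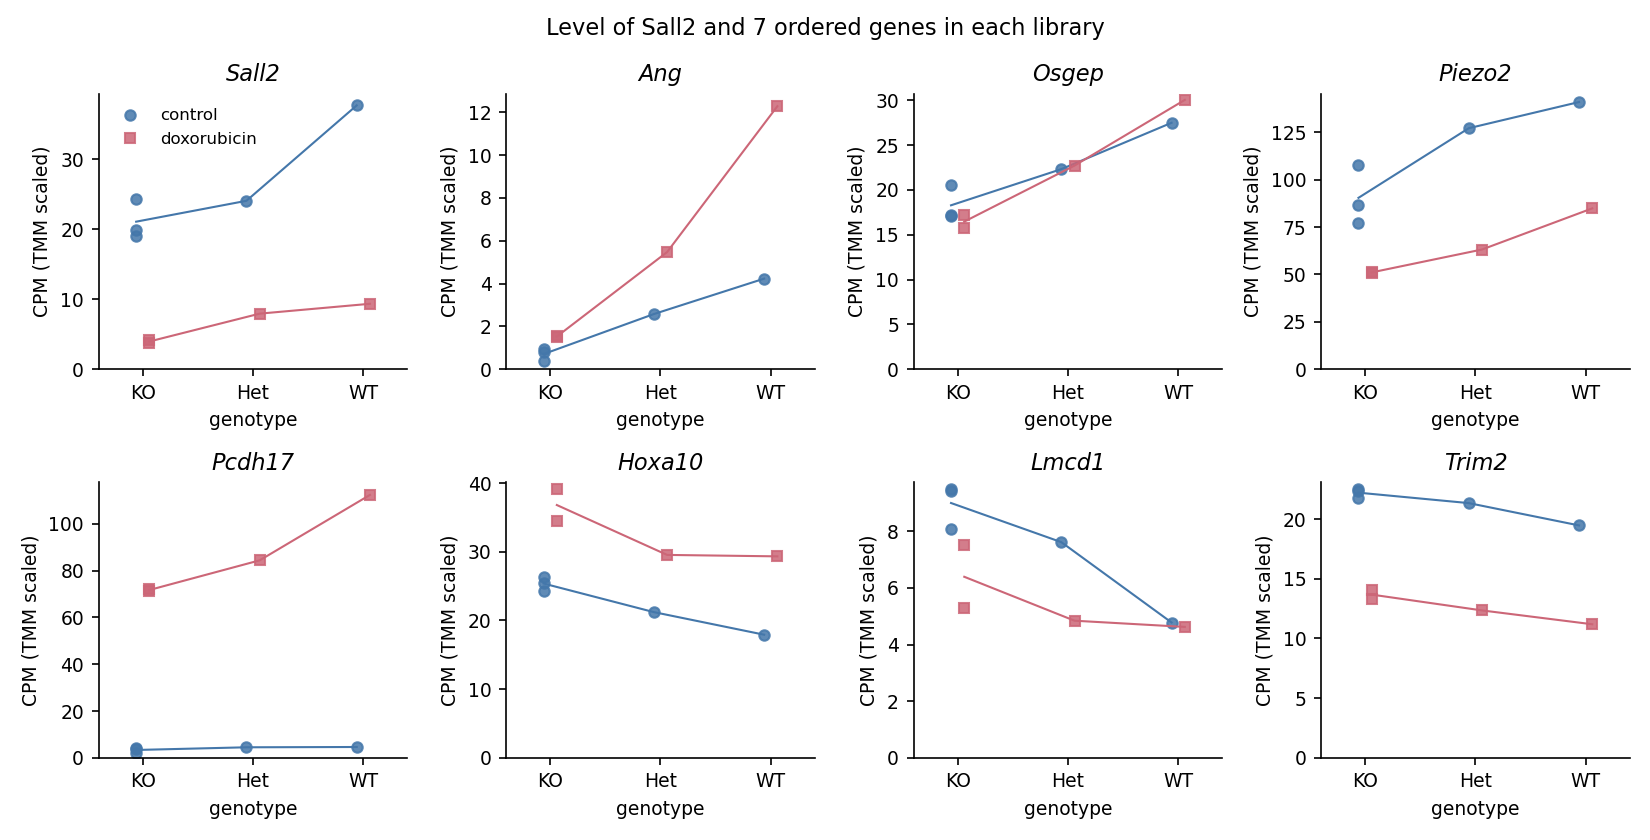
CPM (vertical axis) of Sall2 and 7 ordered genes by genotype (horizontal axis), with a point for each library, control as blue circles and doxorubicin as red squares, and lines through the mean of each genotype. By the rule that chose them, Ang, Osgep, Piezo2 and Pcdh17 are highest in WT in both treatments. Hoxa10, Lmcd1 and Trim2 are lowest in WT by the same rule.

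The other ordered genes higher with dosage each had at least 1 step smaller than 1 SD of its counting error. Pcdh17, a protocadherin of cell contacts, had 4.63 CPM in untreated WT, 4.51 in Het and 2, 4.27 and 3.81 in KO cells. Treated WT cells had 112, Het 84.4 and KO 71.2 and 72.4. The gap between untreated Het and KO embryo 2 was narrow, and the treated libraries were all far above the untreated ones. Wnk4, a kinase that controls ion transport, had 58.4 CPM in treated WT and 57.8 in Het, above 53 and 52.4 in KO.

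Tcam1, a cell adhesion gene, reached 5.82 CPM in WT and 4.65 in Het with doxorubicin, where the KO embryos were at 4.28 and 4.27, but was under 0.35 CPM in all control libraries. Its slope of 0.95 ± 0.65 turned to -0.08 in limma-voom with the embryo as a replicate block. Kcnt2, a potassium channel gene, had a slope of 0.54 ± 0.36, and Adam22, a membrane protein of the ADAM family, 0.36 ± 0.25. The slopes of Idua, a lysosomal enzyme that degrades glycosaminoglycans, Zeb2, a transcriptional repressor, Peo1, a mitochondrial DNA helicase, and Cpeb4, a regulator of mRNA polyadenylation, lay between 0.17 and 0.28. None of these genes passed the threshold.

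Of the ordered genes lower with dosage, Hoxa10 is a homeobox gene of the posterior body. Without the drug WT had 17.9 CPM of it, Het 21.2 and KO 24.3, 25.5 and 26.4. With the drug WT had 29.3, Het 29.6 and KO 39.1 and 34.5. KO libraries were the highest of each treatment, which the order rule requires, and treated WT and Het were nearly level. Hoxa10 lost its order when every gene with at least 1 count was kept. The slope was -0.43 ± 0.16.

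Lmcd1, a LIM domain protein that binds GATA factors, had 4.78 CPM in untreated WT, 7.62 in Het and 9.5, 8.08 and 9.42 in KO cells. In treated cells WT had 4.62, Het 4.84 and KO 7.51 and 5.28. Its slope was -0.68 ± 0.26. Trim2, a ubiquitin ligase, had 19.5 CPM in untreated WT, 21.3 in Het and 22.5, 22.3 and 21.8 in KO cells. By the order rule all KO libraries exceeded Het for both genes, by little for Trim2.

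Gmpr, a purine salvage enzyme, had a slope of -0.40 ± 0.21, and Ppp4c, a phosphatase subunit, -0.09 ± 0.14. The untreated level of Ppp4c ranged from 86.3 CPM in WT to 91.5 in KO embryo 3. The other 5 ordered genes had a mean under 1 CPM and are named here after their values were seen. Cd3d, Card14 and P2ry12 were higher and Chrnb4 and Gm10406 lower with dosage, at few counts.

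With 5 embryos the dosage codes can be arranged in 20 ways, so an exact permutation test over embryos (two-sided) can give no p below 0.05. Of the 18 ordered genes with a mean of at least 1 CPM, 5 reached that smallest exact p, among them Ang, Osgep, Hoxa10 and Trim2, and Sall2 and Ppp1r3e also did. The other ordered genes gave an exact p of 0.1, 0.15 or 0.2. These genes were selected for their order in the same libraries, so a p near the smallest follows from the selection and supports nothing.

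Ppp1r3e, Emcn and Tmem260 had a low p but were not ordered, and the first pair are given here after their values were seen. Ppp1r3e and Tmem260 lie on chromosome 14, at 2.56 and 3.87 Mb from Sall2, and Emcn lies on chromosome 3. Ppp1r3e is a subunit that brings a phosphatase to glycogen. In untreated cells WT had 5.53 CPM, Het 2.09 and KO 0.77, 1.12 and 0.852. Under doxorubicin WT had 9.5, Het 9.69 and KO 3.06 and 3.21. Het was nearer to KO without the drug and close to WT with it. The slope was 2.25 ± 0.36 in edgeR, and DESeq2 gave an adjusted p of 0.000391.

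Emcn encodes endomucin, a sialomucin of endothelial cells. Untreated WT cells had 40.5 CPM, Het 12.2 and KO 10.1, 11.4 and 13.6. Treated WT cells had 73.8, Het 17 and KO 18.9 and 20. WT stood apart and Het lay with KO in both treatments. With Het given the code of KO the slope was 1.88 with an adjusted p of 0.0161 in edgeR, and without both WT libraries it was -0.113. Flt1, the most abundant endothelial marker, had 97.2 CPM in untreated WT and 32.1 to 159 in the other untreated libraries.

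Tmem260, a membrane protein with a glycosyltransferase role, had 42.3 CPM in untreated WT, 13.8 in Het and 19.3, 17 and 9.46 in KO cells. With the drug WT had 37.7, Het 11.3 and KO 20.2 and 15.4. WT was the high library of each treatment, and the slope of 1.13 ± 0.39 became -0.752 without both WT libraries. 4930579G18Rik, a noncoding gene, had 4.33 CPM in untreated WT, 12.3 in Het and 1.39, 1.29 and 6.91 in KO cells. Its unadjusted p in edgeR was 0.194. It lies antisense within Acin1, so its counts are uncertain, and it was high in the libraries with high interferon-stimulated genes. Both genes, with Ang and Osgep, were candidates that the study chose on these samples, so their direction is not independent evidence.

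The genes of low p were unevenly placed. Of the 48, 21 lay on chromosome 14, the chromosome of Sall2, which holds 568 of the 16480 genes tested and placed on GRCm38. That is 3.7% of its genes, beside 0.17% of the 15912 genes elsewhere. Those elsewhere include all 4 tested genes of the Y chromosome, which are among the 24 lower with dosage and were high in KO embryos 1 and 3 alone. Within 10 Mb of Sall2 it was 14 of 196 genes (7.14%), and on the rest of the chromosome 7 of 372 (1.88%). The 21 and the 14 include Sall2 itself. Of the 21, 12 were higher and 9 lower with dosage, and 4 of the 23 ordered genes were on this chromosome. Sall2 runs from 52311172 to 52328762 on the minus strand, Ang from 51091150 to 51102009 on the plus strand, and Osgep from 50906478 to 50924893 on the minus strand. Anxa8, Gch1 and Pnp2, each called only in an alternative setting named below, also lie on this chromosome. Sall2 dosage and the 129P2 DNA linked to the targeted allele cannot be told apart here.

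**Figure D3:**
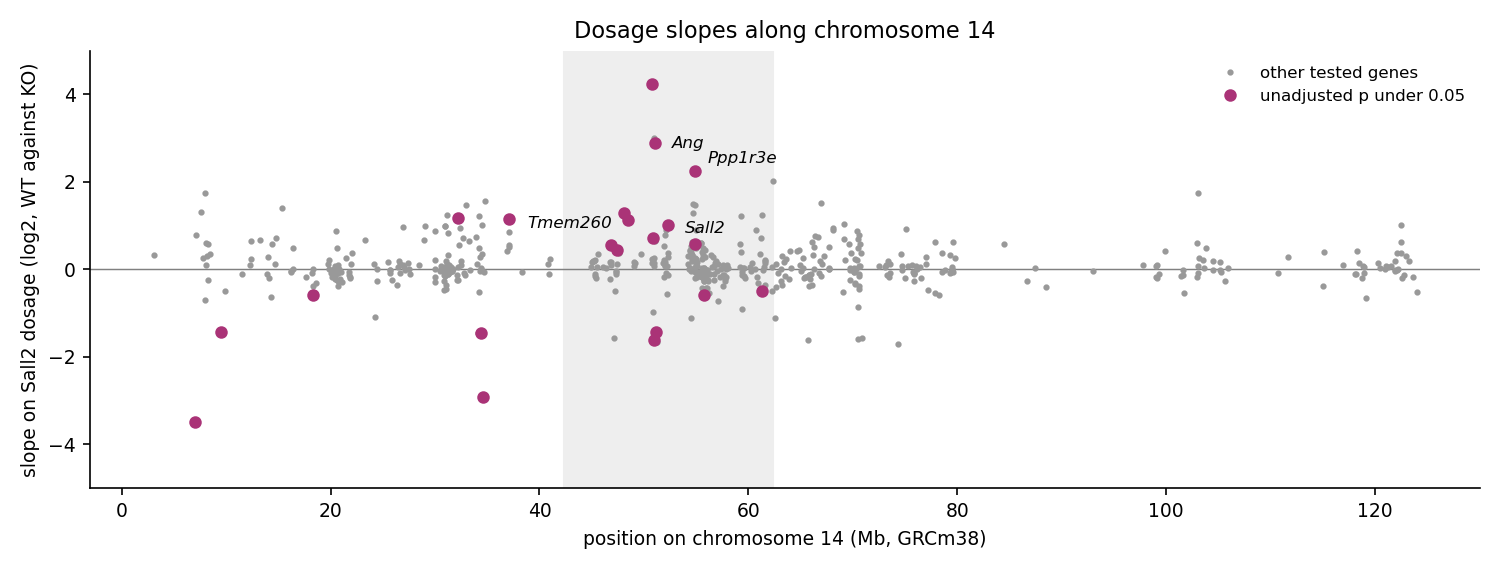
Slope on Sall2 dosage (vertical axis, log2) of the 568 tested genes of chromosome 14 by position (horizontal axis, Mb of GRCm38), with the 21 genes at an unadjusted p under 0.05 in purple and the 10 Mb on each side of Sall2 shaded. Of the purple points, 14 lie within the shaded part.

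Of the other spalt genes, Sall1 had 3.34 CPM in untreated WT, 8.64 in Het and 5.03, 4.38 and 2.02 in KO cells. Sall3 had 0.498, 2.38, 0.668, 0.786 and 0.808 in the same order, and Sall4 was under 0.06 CPM in every untreated library. Treated libraries ranged from 20.2 to 36.3 CPM for Sall1, 11.7 to 15.1 for Sall3 and 0.459 to 1.45 for Sall4. Het was the highest treated library for each of the 3 genes. None passed, and the slopes of Sall1 and Sall3 turned negative without the Het libraries, at -0.0332 and -0.291.

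Of the 7 described targets of SALL2 none had an unadjusted p under 0.05. Cdkn1a encodes the cell cycle inhibitor p21. Without the drug WT had 555 CPM, Het 533 and KO 449, 493 and 392. In treated cells WT had 271, Het 304 and KO 311 and 337. It was 1 of 7 genes, among 16656 tested, that were strictly ordered in both treatments but in opposite directions. Its level was highest in WT without the drug and lowest in WT with it, and its slope over both was 0.08 ± 0.24.

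Pmaip1, a killer of damaged cells through mitochondria, had 112 CPM in untreated WT, 198 in Het and 62.9, 80.6 and 136 in KO cells. Cdkn2a, another inhibitor of the cell cycle, had 52.3 for WT, 71.6 for Het and 26.7, 46.9 and 50.2 for KO. WT and KO overlapped for Pmaip1, and Het was the highest untreated library for both. Treated Pmaip1 levels were 580 for WT, 439 for Het and 471 and 601 for KO, with Het the lowest. Myc, Ccnd1 and Ccne1, which drive the cell cycle, were lowest in Het and KO embryo 3, with Ccnd1 at 129 and 186 CPM there and at 313 to 345 in the other untreated libraries. Bax, a target of p53, had 258 and 277 CPM in the same pair and 133 to 160 in the others.

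The gene lists are read beside 0.288% of all genes at an unadjusted p under 0.05 and a median slope of -0.00 over all genes. No member was at an unadjusted p under 0.05 among the markers of fibroblasts (median slope -0.08), macrophages (1.00), glia and neural crest (0.30), smooth muscle (-0.12), skeletal muscle (0.68), cartilage (0.08), epithelia (-0.16), neurons (-0.02) and adipocytes (0.17). The same held for interferon-stimulated genes (-0.38), p53 targets (0.02), matrix genes (0.10), imprinted growth genes (-0.02) and enzymes of tetrahydrobiopterin (-0.17). Endothelial markers (0.13) held 1 such gene of 9 (11.1%), Emcn, and the ribosomal proteins (-0.14) 1 of 79 (1.27%), Rpl15, which lies on chromosome 14. Within each treatment the endothelial median was -0.22 in control and -0.27 with doxorubicin, both opposite in sign to that over both. For interferon-stimulated genes it was -1.31 in control and 0.24 with doxorubicin, with 15 of 22 opposite in direction between treatments. Medians of some other lists also differed in sign between treatments.

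Mitosis genes had a median slope of -0.29 and replication genes of -0.22, with 11 of 12 and 11 of 13 lower with dosage in both treatments, beside 4095 of all 16656 genes, and none at an unadjusted p under 0.05. In untreated cells WT had a summed 1090 CPM of mitosis genes, Het 327.6 and KO 1465, 1140 and 449.7. Het and KO embryo 3 were again the libraries apart. All 13 macrophage markers had a positive slope in both treatments, beside 4267 of all 16656 genes, with Het, at a code of 0.5, the highest library of each treatment for their sum.

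Of 38 tested Hox genes, which pattern the body axis, Hoxb9 and Hoxa10 had an unadjusted p under 0.05 (5.26%). Hoxb9 had 78.5 CPM in untreated WT, 42.2 in Het and 41.6, 49.5 and 52 in KO cells. Under doxorubicin WT had 66.8, Het 41.6 and KO 40.6 and 47.5. WT was alone at the top and Het lay within the KO range in both treatments. Of 9 other homeobox genes on a list, Meox1, which acts in the mesoderm, alone had an unadjusted p under 0.05. It had 37.6 CPM in untreated WT, 24.6 in Het and 19.8, 13.7 and 8.48 in KO cells, with a slope of 1.10 ± 0.34. Treated KO embryo 1, at 5.06, exceeded Het, at 4.07.

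Of 4 structural RNAs, Rpph1 had a low p. The ribosomal precursor Rn45s was counted at 38360 CPM in untreated KO embryo 2 and 19320 in treated Het, with 470.7 to 6314 in the other 7 libraries. Rmrp, an RNA of a ribonuclease complex, had 79 CPM in that KO library and at most 13.1 elsewhere. Rpph1, the RNA of ribonuclease P, had 1.14 CPM in WT and 1.27 in Het without the drug and 1.69 and 6.64 with it, with 0 to 5 counts in every KO library. Every KO library was thus below WT and Het, at an unadjusted p of 0.0445 in edgeR, and the fitted slope depends on the prior count. Rpph1 also lies on chromosome 14 and overlaps Ccnb1ip1, so its counts are uncertain. Terc, the RNA of telomerase, had a slope of 0.02 ± 1.96.

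Whether the slope differed between treatments was tested with an interaction term. In edgeR 0 of 16656 genes passed, with 12 (0.072%) at an unadjusted p under 0.05, and DESeq2 called 0, with 14. In limma-voom with the replicate block 134 were at an unadjusted p under 0.05, and tool and block cannot be told apart there. The edgeR count of 12 was 296 without untreated WT, 53 without untreated Het, 22 without untreated KO embryo 2, 800 without treated WT, and 3 and 6 without treated KO embryo 1 or 2. In control alone edgeR called 0 of 14947 genes, with 11 (0.0736%) at an unadjusted p under 0.05, and DESeq2 0, with 24. The 11 became 203 without WT and 21 without KO embryo 2. With doxorubicin alone edgeR called 0 of 16210, with 18 (0.111%) at an unadjusted p under 0.05, while DESeq2 called 3, Ang, Gch1 and Pnp2, named after their values were seen. That count of 0 was 6762 without WT, where Het is set against KO alone, 46 without Het, and 3 without KO embryo 2, all Y-linked. The 18 became 8029 without WT, 433 without Het and 7 without KO embryo 1. Both libraries of an embryo enter the slope over both treatments as if independent, which by itself makes p-values too small, although only 0.288% of genes were at an unadjusted p under 0.05. With the embryo as a replicate block in limma-voom, at an estimated correlation of 0.701, the test called 0 genes, and 17 were at an unadjusted p under 0.05.

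Promoters of the ordered genes were searched for GGGTGGG or GGGCGGG on either strand, GC-rich words of the kind described for SALL2, in the 250 bases before the start of the gene. Of 20 ordered genes with a RefSeq promoter 9 held a match, beside 51.4% of 12732 tested genes and 33.7% of all 27025 promoters. Ang and Osgep are shown as ordered genes near Sall2, and Hoxa10 because it was ordered the other way; the sequences are those of RefSeq on GRCm38.p6, 5′ to 3′, with matches in capitals. Ang and Osgep hold none in this window and Hoxa10 holds 1. Bases after the start and other forms of the site were not searched. For the Ang/Rnase4 promoter the paper reports clustered SALL2 sites near the transcription start, with data not shown. It also reports lower reporter activity of this promoter in immortalized KO than WT MEFs. The lack of a match for Ang therefore does not bear on those sites.
Ang (chr14:51090827-51091076, plus strand): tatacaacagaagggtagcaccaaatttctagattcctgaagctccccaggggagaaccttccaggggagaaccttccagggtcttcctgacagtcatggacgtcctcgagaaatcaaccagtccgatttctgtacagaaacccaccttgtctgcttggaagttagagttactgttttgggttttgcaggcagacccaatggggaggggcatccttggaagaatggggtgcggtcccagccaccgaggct
Osgep (chr14:50924894-50925143, minus strand): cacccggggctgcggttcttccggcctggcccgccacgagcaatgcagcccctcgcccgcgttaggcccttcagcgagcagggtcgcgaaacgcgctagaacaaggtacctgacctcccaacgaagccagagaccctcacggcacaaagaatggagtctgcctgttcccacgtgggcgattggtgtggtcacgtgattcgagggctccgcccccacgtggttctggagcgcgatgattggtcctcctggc
Hoxa10 (chr6:52240855-52241104, minus strand): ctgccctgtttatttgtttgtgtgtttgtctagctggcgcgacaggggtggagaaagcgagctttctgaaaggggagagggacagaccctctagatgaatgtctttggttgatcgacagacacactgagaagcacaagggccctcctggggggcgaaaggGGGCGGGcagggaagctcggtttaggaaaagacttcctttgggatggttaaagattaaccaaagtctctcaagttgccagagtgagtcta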

How the data were processed

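The deposited values are whole-number read counts per gene, which the authors made by merging 4 FASTQ files per sample, aligning to mm10 with HISAT2 (2.1.0 in the submitters' processing notes) and counting with HTSeq in union mode on iGenomes genes. The strand setting is not given in the sources used here, so overlapping and antisense genes are uncertain.

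Tests on these counts used edgeR 4.0.16 under R 4.3.3 (TMM, filterByExpr over the genotype-by-treatment groups, glmQLFit and glmQLFTest, two-sided, Benjamini-Hochberg adjustment at 0.05), limma 3.58.1 and DESeq2 1.42.0. SE is the slope divided by the root of F. Levels are CPM on TMM-scaled library sizes, and 3 counts equal 0.123 to 0.168 CPM; limits cover counting error only. The RUVg factor (1) was computed after its published description, without its package, from log counts of the genes other than the 5000 with the smallest p. The procedures were run on simulated counts drawn independently for each library. These hold no sharing of embryos between libraries, so they do not test how the procedures behave with it. Exact permutation tests used least-squares slopes of log2 CPM with a prior count of 2. Coordinates are GENCODE on GRCm38; 23641 of 24062 symbols were placed.

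Libraries with the same embryo number were taken as paired; as a check, deviations of an embryo in control correlated best with its own deviations under doxorubicin for all 4 embryos (0.475 to 0.727 across genes). The embryo as a fixed block is aliased with dosage, so the replicate block was a random effect.

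Genes named were the 12 ordered genes per direction with the largest slopes at a mean of at least 1 CPM, called genes (0), members of the spalt, target, candidate, sex-linked and structural RNA lists, and the most abundant and called members of other lists. Of those, Erbb3, Acta2, Acta1, Col2a1, Krt18, Tubb3, Cebpa, Bst2, Ccng1, Top2a, Rrm2, Sparc, Igf2, Spr, Rps3, Mmp14 and Fn1 had an unadjusted p of at least 0.0713. Some genes that meet this rule are not reported here. Members and lists were chosen with earlier results of these data known. Alternatives were other tools, scaling, filters, thresholds, codings of Het and left-out libraries.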

Additional observations from a re-analysis of the deposited data

Results flagged for a closer look

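Of the 16656 genes tested, 7 were strictly ordered by genotype in both treatments but in opposite directions, beside 23 ordered the same way. They were picked out after their values were seen. Whether 7 exceeds the number for unrelated orders in the treatments was not tested. 5 were highest in WT in control and lowest in WT with doxorubicin, with interaction slopes (doxorubicin minus control) of -0.599 for Cdkn1a, -0.378 for 2310022A10Rik, -0.572 for Fv1, -0.528 for Pla2g6 and -0.774 for Ttll1. The others, 1700102H20Rik (4.58) and Gm10494 (2.94), went the opposite way at levels under 1 CPM, with 0 counts in 1 library each, so that these fitted values depend on the prior count. In the interaction test of edgeR the difference was not significant for any of the 7, with an adjusted p of 1 for each and unadjusted p from 0.0383 for 1700102H20Rik to 0.345 for 2310022A10Rik.

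Pla2g6, a phospholipase, had 31.7 CPM in untreated WT, 28 in Het and 22.5, 27.8 and 25.4 in KO cells. Treated WT cells had 49.3, Het 49.6 and KO 59.4 and 53. The treated WT and Het libraries were nearly level.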

How the results depend on the processing

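The count of genes past an FDR of 0.05 for the slope over both treatments stayed at 0 with RLE factors, library sizes without Rn45s, both other filters, limma-voom with and without the replicate block, Het given the value of WT, an FDR of 0.01 or 0.1 and without the Het libraries. It was 2 with DESeq2 (Ang and Ppp1r3e), 1 with 1 RUVg factor (Ang), 1 with Het given the value of KO (Emcn) and 5 without the Het libraries and KO embryo 3, an alternative chosen after the data were seen (Ang, Emcn, Ppp1r3e, Tmem260 and Anxa8). Leaving out a single library, or an embryo with both its libraries, gave 0 genes in each case. In control the count was 0 throughout. With doxorubicin alone DESeq2 gave 3, and leaving out a library gave 0 to 6762, the largest without WT, where Het is set against 2 KO libraries, and 46 without Het. The interaction gave 0 throughout, the replicate block included.

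The number of genes with the same direction was 8502 with RLE factors and 10744 without KO embryo 3. Ordered genes numbered 27 with RLE factors (16 shared with the 23) and 31 with every gene of at least 1 count (20 shared). They were 1868 without the Het libraries and 3505 without these and KO embryo 3, where the order has fewer steps, and 68, 112 and 41 without KO embryos 1, 2 and 3. The number of genes at the smallest exact p was 7 with prior counts of 0.5 and 5 as well.

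Of 816 refitted slopes of 34 genes 27 changed direction, 1 of them of an ordered gene, Tcam1 (-0.077 with the replicate block). With Het given the value of KO they were Sall1 (-0.367), Sall3 (-0.601), Ccnd1 (0.232), Ccne1 (0.0935) and 4930579G18Rik (-0.22). With Het given the value of WT they were Bax (0.0895) and Myc (-0.0671). Without the Het libraries they were Sall1 (-0.0332) and Sall3 (-0.291), and without these and KO embryo 3 Sall1 (-0.119), Sall3 (-0.164) and Cdkn1a (-0.0098). Sall3 was also at -0.00915 with 1 RUVg factor and -0.0154 with limma-voom with no replicate block. With 1 library left out the slope ranged from -0.264 to 0.796 for Sall3, -0.0771 to 0.257 for Cdkn1a, -0.22 to 0.142 for Bax and -0.145 to 0.187 for Myc. With both libraries of an embryo left out it ranged from -0.000359 to 2.05 for Sall3, -0.253 to 0.655 for Bax, -0.765 to 0.203 for Myc, -2.31 to 0.0132 for Ccnd1, -0.752 to 1.45 for Tmem260 and -0.113 to 1.8 for Emcn. The cause was not tested. Without both WT libraries the slope rests on Het against KO alone.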
